A study of Arabidopsis thaliana with 6 samples.

Results

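The levels of 6 transcripts of dividing and stem cells were compared between roots of WT and of the *ninja-1* mutant, and none of them passed the test for a difference. The 6 genes are *MCM7* (AT4G02060), *AUR1* (AT4G32830), *AUR2* (AT2G25880), *BBM* (AT5G17430), *JKD* (AT5G03150) and *ACR4* (AT3G59420). They were chosen by name for their roles in the root meristem, and the array annotation gives each of them 1 probe set of its own, so that 6 of the 13286 genes with a probe set of their own, and 6 of the 22746 probe sets tested, are described here. The series has 6 arrays from roots of 5-day-old seedlings, 3 of the wild type and 3 of *ninja-1*. WT was accession Col-0, and *ninja-1* is a mutant allele of *NINJA*, whose protein links JAZ repressors to the co-repressor TOPLESS in jasmonate (JA) signalling. Both genotypes grew untreated on sterile solid medium at 21°C with 14 h of light and 10 h of dark. Each array holds the RNA of 120 roots pooled as 1 biological replicate, and a single mutant allele was profiled. In such bulk samples, fewer cells of a type and less RNA per cell cannot be told apart.

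Root growth starts in the meristem at the root tip, where slowly dividing stem cells surround a quiescent centre and their daughters divide before they elongate. A dividing cell first licenses its origins of replication with the MCM helicase, then copies its DNA and sorts its chromosomes in mitosis with the help of Aurora kinases. Stem cell identity is held by PLETHORA transcription factors, tissue layers are set by SHORT-ROOT, SCARECROW and their zinc finger partners, and receptor kinases such as ACR4 act in the division of stem cells toward the root cap. JA is known to reduce root growth through both cell division and cell elongation. For *ninja* mutants, the paper cites earlier work in which the shorter roots came from reduced cell elongation alone. The arrays measured which root transcripts differ when NINJA-dependent repression is lost, and the values below bear on the transcripts of division and stem cells.

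Values are on a log2 scale and were computed by the authors with GCRMA. This algorithm corrects the background from the probe sequence and brings the probe intensities, not the final values, of all arrays to 1 distribution. The lowest value was 2.11 and the highest 15.1, array medians lay between 5.95 and 6.03, and each array had between 26.5% and 27.0% of its probe sets no more than 0.05 above the lowest value, called the floor. The genotype labels were checked on AT5G05600, a 2-oxoglutarate-dependent oxygenase gene, since *NINJA* itself was not analysed here. The study picked this gene from these same arrays, so the check is not independent of them. AT5G05600 read 7.17, 7.44 and 7.45 in WT and 9.52, 9.53 and 9.40 in *ninja-1*, higher by 2.13 ± 0.09 (standard error, SE, limma adjusted p = 0.00636). *JRG21*, a jasmonate-regulated gene, was next to the floor in WT, at 2.22 or less, and read 3.12, 3.73 and 4.12 in *ninja-1* (adjusted p = 0.132). AT3G11180, the third gene of this list with a probe set of its own, stayed at the floor. Root identity could be checked on 2 marker genes alone: *EXPA7*, an expansin gene of root hairs, read 8.70 or more on every array and the cortex marker AT1G62500 between 6.43 and 7.13. *RCA*, the gene for Rubisco activase and the only green tissue marker of 12 with a probe set of its own, read between 10.1 and 10.5 with overlapping genotypes. It lay above both root markers on every array, and the presence of green tissue was not tested. No marker of the root cap, xylem or phloem had a named probe set.

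*MCM7*, also named *PROLIFERA*, encodes a subunit of the helicase that opens DNA for replication and lies on chromosome 4. Its log2 values were 7.82, 7.97 and 8.16 in WT and 7.67, 7.77 and 7.78 in *ninja-1*. Every *ninja-1* array lay below every WT array, by 0.04 at the closest pair, so *MCM7* was the only gene of the 6 whose genotypes did not overlap. Groups that do not overlap were found in 17.8% of all probe sets, and in 10.1% with *ninja-1* as the lower group. WT averaged 7.98 ± 0.17 and *ninja-1* 7.74 ± 0.06 (SD, n = 3 each). The log2 change of −0.24 (SE 0.10, 95% interval −0.52 to 0.03) did not pass the test in limma (adjusted p = 0.439), as 0.374% of all probe sets did with a lower level in *ninja-1*. An exact permutation test of the 6 values, two-sided, gave p = 0.10, the smallest that 3 arrays against 3 can give. With 1 array left out, the log2 change lay between −0.33 without WT replicate 1 (95% interval −0.57 to −0.09) and −0.15 without WT replicate 3 (−0.36 to 0.05). The other 4 leave-out intervals included 0, and none of the 6 passed the adjusted p.

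*AUR1* and *AUR2* encode the 2 closely related alpha-type Aurora kinases, which act at the mitotic spindle and the cell plate. *AUR1*, on chromosome 4, read 7.59, 7.49 and 7.63 in WT and 7.62, 7.65 and 7.47 in *ninja-1*. The lowest and the highest of these 6 values both came from *ninja-1*. Its log2 change was 0.01 (SE 0.07, 95% interval −0.17 to 0.19, adjusted p = 1 from limma), and an exact permutation test gave p = 0.80. In fold terms, the interval ran from 0.889 to 1.14 times the WT level, the narrowest of the 6 genes.

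*AUR2*, on chromosome 2, read 6.88, 6.98 and 6.82 in WT and 7.10, 7.03 and 6.76 in *ninja-1*. Replicates 1 and 2 of *ninja-1* lay above all WT arrays and replicate 3 below all of them. The log2 change was 0.07 (SE 0.11, 95% interval −0.23 to 0.36, adjusted p = 0.948 from limma). In both Aurora genes, *ninja-1* replicate 3 gave the lowest of the 6 values. Neither probe set carries the name suffix that the array design gives to probes shared by several transcripts. Over the 6 arrays, the values of *AUR1* and *AUR2* had a Pearson's r of 0.46 (exact permutation p = 0.353) and a Spearman's rho of 0.49 (exact permutation p = 0.356), with r = 0.45 without the 2 arrays farthest from the median of *AUR1*. *AUR1* and *AUR2* were 1 of 15 pairs among the 6 genes, and the smallest adjusted exact permutation p for Pearson's r over these pairs was 0.882.

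**Figure D1:**
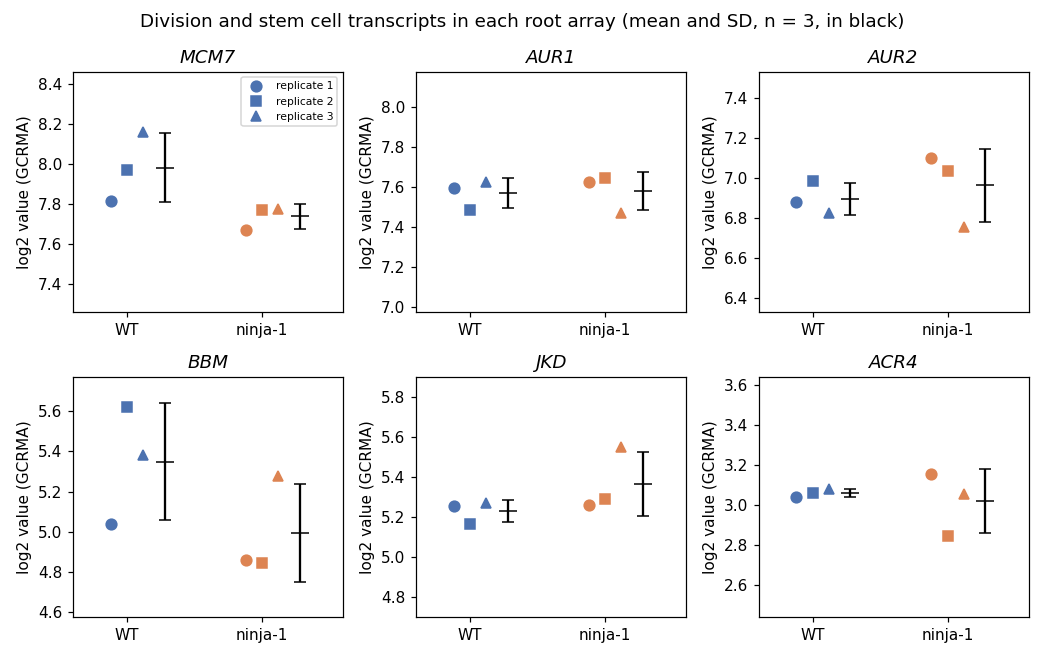
Log2 value (GCRMA) of each of the 6 genes on the vertical axis for the 3 WT and the 3 *ninja-1* arrays, with a symbol for each replicate and the mean ± SD (n = 3) in black; every panel spans the same range of log2 units around the gene's own mean. The genotypes overlap for all genes except *MCM7*, whose *ninja-1* values end at 7.78 and whose WT values start at 7.82.

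*BBM* (*BABY BOOM*), on chromosome 5, encodes a PLETHORA-family transcription factor that acts in the root stem cell niche. It read 5.04, 5.62 and 5.38 in WT and 4.86, 4.84 and 5.28 in *ninja-1*. Replicates 1 and 2 of *ninja-1* were below all WT arrays, while replicate 3 lay above WT replicate 1. WT averaged 5.35 ± 0.29 and *ninja-1* 4.99 ± 0.25 (SD, n = 3 each). The log2 change of −0.35 was the largest in size of the 6 genes, with the largest standard error as well (0.21, 95% interval −0.92 to 0.21, adjusted p = 0.608 from limma). Of all probe sets tested, 96.3% had a standard error no larger than that of *BBM*.

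*JKD* (*JACKDAW*), also on chromosome 5, encodes a zinc finger protein that works with SCARECROW and SHORT-ROOT in the patterning of the ground tissue. It read 5.26, 5.17 and 5.27 in WT and 5.26, 5.29 and 5.55 in *ninja-1*. Replicate 3 of *ninja-1* was the highest array, and replicate 1 fell within the range of WT. The log2 change was 0.14 (SE 0.09, 95% interval −0.11 to 0.39, adjusted p = 0.682 from limma), and it was 0.04 without *ninja-1* replicate 3.

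*ACR4*, on chromosome 3, encodes a receptor-like kinase of the CRINKLY4 family that restricts division of the stem cells beneath the root cap. It read 3.04, 3.06 and 3.08 in WT and 3.16, 2.85 and 3.06 in *ninja-1*. The WT arrays lay within 0.04 of each other and between the lowest and the highest *ninja-1* array. The log2 change was −0.04 (SE 0.09, 95% interval −0.28 to 0.20, adjusted p = 1 from limma). At 0.74 or more above the lowest value of the arrays, *ACR4* was not at the floor, but it was the only gene of the 6 under a log2 value of 4, where a decrease has little room to show.

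Counted together, 0 of the 6 genes passed the adjusted p of 0.05 in limma and 0 passed the unadjusted p, where 1.18% and 13.0% of all probe sets did. When a change of 2-fold or more was asked for beside the adjusted p, 0.541% of the probe sets were called and 0 of the 6 genes. Of the 6 log2 changes, 3 were above 0 (*JKD*, *AUR2* and *AUR1*) and 3 below (*BBM*, *MCM7* and *ACR4*). Their median was −0.02, and their median size without the sign was 0.10, beside 0.06 over all probe sets tested and 0.11 over the 14212 with a mean above 4. The array of *ninja-1* replicate 3 gave the lowest value of its genotype for *AUR1* and *AUR2* and the highest for *BBM* and *JKD*. Its median distance from the genotype's mean over the 14212 probe sets was 0.0790, beside 0.0767 and 0.0695 for *ninja-1* replicates 1 and 2 and 0.0598 to 0.0636 on the WT arrays, and its part in these 4 results was not tested beyond leaving it out. Without it the log2 changes were 0.07 for *AUR1*, 0.17 for *AUR2*, −0.50 for *BBM* and 0.04 for *JKD*.

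A p above the threshold does not show that a transcript was equal in both genotypes, so the 95% intervals were set against changes of a stated size. A 2-fold change in either direction lay outside the interval of all 6 genes, although for *ACR4* this says nothing of a decrease, since its WT mean lay only 0.95 above the lowest value of the arrays. A 1.5-fold change lay outside it in both directions for 5 genes, all except *BBM*, whose interval reached down to 0.529 times the WT level. *ACR4* is among the 5, but its values lie near the background, so its interval is a weak guide to its RNA level. With 1 array left out, the interval of *MCM7* included a 1.5-fold decrease in 3 of the 6 cases, without WT replicate 2, *ninja-1* replicate 2 or *ninja-1* replicate 3, and reached a log2 change of −0.64. For *MCM7* the interval ran from 0.699 to 1.02 times WT, for *AUR2* from 0.856 to 1.29, for *JKD* from 0.924 to 1.31 and for *ACR4* from 0.825 to 1.15. With 1 array left out, the interval of *BBM* included a 2-fold decrease for every array except WT replicate 2, reaching a log2 change of −1.13 without WT replicate 3. It also included one with the replicate number as a block, where it ran from −1.07 to 0.36. No other gene's interval included a 2-fold change with any 1 array left out or with the block.

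**Figure D2:**
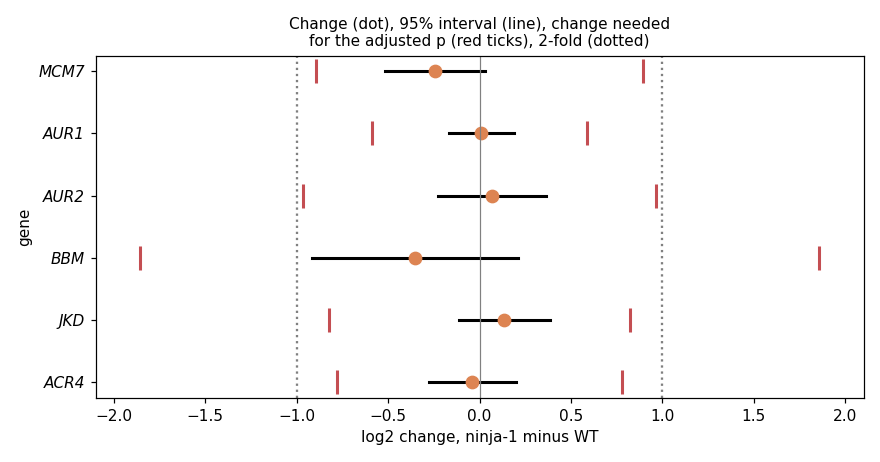
Log2 change (*ninja-1* minus WT, dots) of the 6 genes with the 95% interval (black lines), the change at which each would have passed the adjusted p (red ticks) and a 2-fold change (dotted lines at −1 and 1). All 6 intervals include 0 and lie inside the dotted lines, and the red ticks of *BBM* alone lie beyond them, at a log2 change of 1.85 in size.

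The smallest change that 3 arrays per genotype could have shown was computed from the standard error of each gene. In this comparison a probe set passed the adjusted p when its unadjusted p was no more than 5.82e-04. To reach it at its own standard error, *AUR1* would have needed a 1.51-fold change, *ACR4* 1.72-fold, *JKD* 1.77-fold, *MCM7* 1.86-fold and *AUR2* 1.95-fold. *BBM* would have needed 3.62-fold. A true 2-fold increase would thus have brought 5 of the 6 genes past the adjusted p if it had been measured without further error. *ACR4* is among the 5, although its values lie near the background. A 2-fold decrease would have brought 4 of the 6 past it, since one of *ACR4* would end below the lowest value of the arrays. The count for an increase depended on the setting: it was 1 of the 6 genes without moderation of the variances and between 0 and 3 of them with 1 array left out. For an 80% chance of passing, the true change would have to be 1.66-fold for *AUR1*, 1.95-fold for *ACR4*, 2.02-fold for *JKD*, 2.15-fold for *MCM7* and 2.28-fold for *AUR2*. For *BBM* it would have to be 4.88-fold. Over all probe sets with a mean above 4, the median log2 change needed was 0.79, and 67.6% of them would have passed at 2-fold. The *AUR1* probe set, at 0.59, needed less than this median, and *MCM7* (0.89), *JKD* (0.82), *AUR2* (0.97) and *BBM* (1.85) needed more. When only probe sets above 4 in at least 3 arrays were tested, the change needed was smaller, from 1.26-fold for *AUR1* to 1.67-fold for *BBM*. None of the 5 genes that remained in that test passed it (lowest adjusted p = 0.207, *MCM7*), and *ACR4* was left out by the filter.

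**Figure D3:**
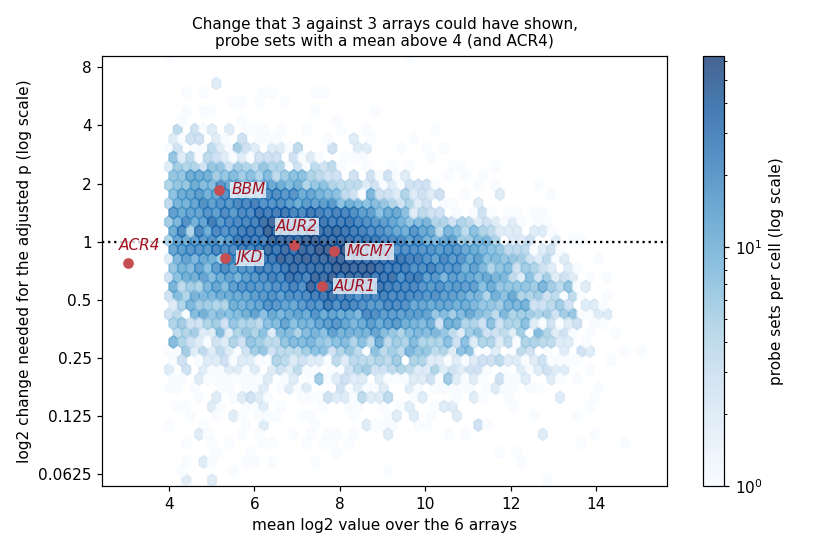
Log2 change needed to pass the adjusted p (vertical axis, log scale) against the mean log2 value over the 6 arrays (horizontal axis) for the 14212 probe sets with a mean above 4 (blue cells, darker where there are more), with the 6 genes as red dots; *ACR4* has a mean under 4. *BBM* lies above the dotted line of a 2-fold change, at 1.85, and the other 5 genes lie below it, between 0.59 and 0.97.

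Other genes of the same processes were looked up by their AGI codes in 4 lists of 161 genes, 20 of which have a named probe set of their own. Only these 20 are called measured below. The array may hold probe sets for the others that the annotation does not give to a single gene. *CYCB1;1* and *PCNA1* are not among the 20 and were not analysed here. None of the 20 passed the adjusted p in limma, 2 passed the unadjusted p, and the genotypes did not overlap for 3, beside 1.18%, 13.0% and 17.8% of all probe sets. The median log2 change of the 20 genes was 0.02, and over all probe sets it was 0.

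Of 49 genes of mitosis and cytokinesis, 8 were measured, and the 2 with an unadjusted p under 0.05 were both in this list. *3xHMG-box2*, for a chromatin protein that binds mitotic chromosomes, read 9.04, 8.91 and 8.96 in WT and 9.15, 9.13 and 9.11 in *ninja-1*. All *ninja-1* arrays were above all WT arrays, as for 7.75% of all probe sets, and the log2 change was 0.16 (SE 0.04, adjusted p = 0.203). *BUB3.1*, a gene of the spindle checkpoint, which delays the separation of chromosomes, read 8.40, 8.38 and 8.32 in WT and 8.68, 8.63 and 8.44 in *ninja-1*. Here too the genotypes did not overlap, with a log2 change of 0.22 (SE 0.07, adjusted p = 0.346). For *PAKRP1L*, a kinesin gene, the log2 change was 0.31 (adjusted p = 0.467) and for *AUR3*, the beta-type Aurora kinase gene, −0.11 (adjusted p = 0.669). Of the 8 genes, 7 had a log2 change above 0, also after median centring or quantile normalization, and the median was 0.14. The share above 0 over all probe sets was not counted. Among the 7 were AT4G14330 and *BUBR1*, named here after their values were seen, with genotype means under 4. They read 3.79 and 4.09 on *ninja-1* replicate 1, and 3.36 and 3.71 on both other *ninja-1* arrays. In WT, AT4G14330 read 3.36, 3.44 and 3.36 and *BUBR1* 3.85, 3.70 and 3.87. For both genes, *ninja-1* replicate 1 alone lay above all WT arrays.

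Of 33 genes of replication licensing and DNA synthesis beside *MCM7*, 3 were measured. *PSF2*, of the GINS complex that joins MCM at the replication fork, had a log2 change of 0.14 (adjusted p = 0.771 from limma). *ICU2*, for the catalytic subunit of DNA polymerase alpha, had one of −0.06 (adjusted p = 0.930), with WT values of 5.93, 6.08 and 6.20 and *ninja-1* values of 5.88, 6.04 and 6.10 that overlapped. The remaining gene, AT1G07270, was under a log2 value of 4 and had a log2 change of 0.01 (adjusted p = 1). Of 33 genes of G1/S control, only *SIM*, for an inhibitor of cyclin-dependent kinases that stops mitosis in trichomes, had a named probe set of its own. It read 10.08, 10.20 and 10.33 in WT and 10.44, 10.45 and 10.31 in *ninja-1*, giving a log2 change of 0.20 (SE 0.08, adjusted p = 0.425). Replicate 3 of *ninja-1* was within the range of WT.

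Of 46 genes of the stem cell niche and of tissue patterning beside *BBM*, *JKD* and *ACR4*, 8 were measured, and *CLE40* and AT4G26540, named here after their values were seen, were at the floor on all arrays. *UPB1*, a transcription factor gene that controls the passage from division to elongation through reactive oxygen species, read 7.93, 7.90 and 7.90 in WT and 7.88, 7.82 and 7.73 in *ninja-1*. All *ninja-1* arrays were below all WT arrays, as for 10.1% of all probe sets, with a log2 change of −0.10 (SE 0.04, adjusted p = 0.447 from limma). The log2 change was −0.14 for AT5G48940 (adjusted p = 0.708), −0.04 for AT3G45260, next to the floor (adjusted p = 0.764), and for *SCL23*, which encodes a GRAS protein related to SCARECROW, 0.03 at a low level (adjusted p = 0.820). Above the floor, 5 of the 6 genes had a log2 change below 0, and 4 of 6 after median centring. The 5 included AT3G45260, which read 2.28 on WT replicate 3 and on every *ninja-1* array. *SCL23*, with its log2 change above 0, read 2.88 on replicates 1 and 2 of WT and on replicates 2 and 3 of *ninja-1*. The signs of these low genes thus rest on few arrays, and the share below 0 over all probe sets was not counted.

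**Figure D4:**
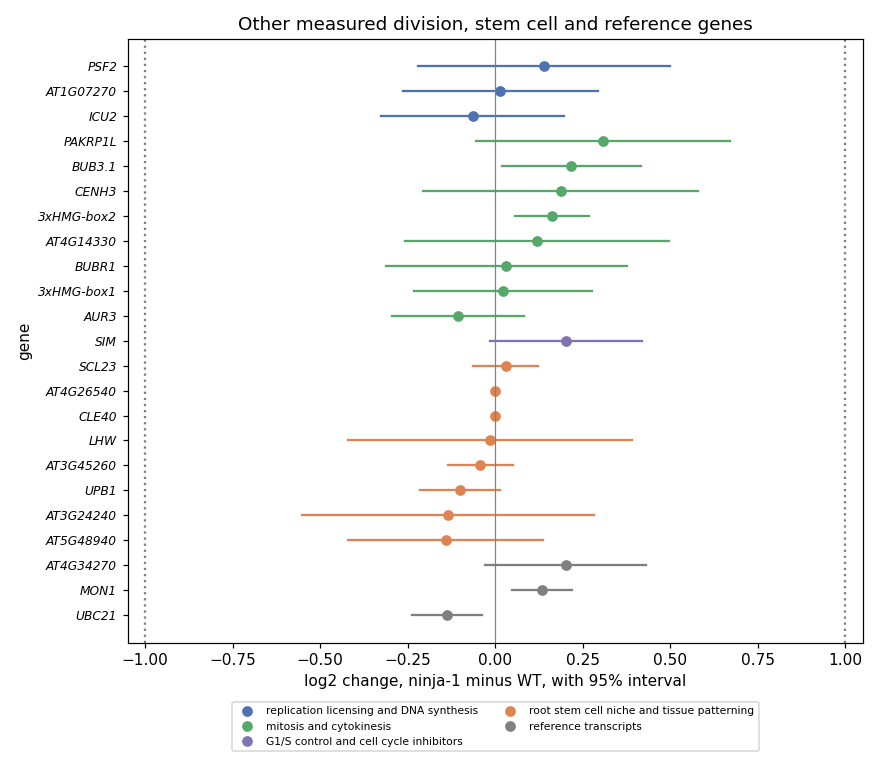
Log2 change (*ninja-1* minus WT, dots) with the 95% interval (lines) for the 20 other measured genes of the 4 lists and for 3 reference transcripts, coloured by list. All of the 20 genes lie between −0.14 and 0.31, inside the dotted lines of a 2-fold change.

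Transcripts that are often used as references in roots gave a scale for these values. *UBC21*, a ubiquitin-conjugating enzyme gene, read 9.78, 9.84 and 9.76 in WT and 9.71, 9.63 and 9.62 in *ninja-1*, giving a log2 change of −0.14 (SE 0.04, adjusted p = 0.243 from limma). For *MON1* the log2 change was 0.13 (adjusted p = 0.202) and for AT4G34270 0.20 (adjusted p = 0.452). In *UBC21* and *MON1* the genotypes did not overlap, as in *MCM7* and in 17.8% of all probe sets. The measured log2 changes of *AUR1*, *AUR2* and *ACR4* were smaller in size than those of all 3 reference transcripts.

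The genes whose values ran most like those of the 6 genes over the 6 arrays were looked up among up to 7689 named probe sets with a mean above 4. For *BBM* these were AT3G02740 (Pearson's r = 0.997) and AT3G05320 (0.993), and for *JKD* AT5G63200 (0.993) and AT3G12290 (0.988). For *MCM7* they were AT1G79520 (0.986) and AT2G34200 (0.986), for *AUR1* AT4G22750 (0.985) and AT3G51100 (0.982), for *AUR2* AT5G23540 (0.987) and AT3G52640 (0.986), and for *ACR4* AT1G06240 (0.977) and AT3G53670 (0.974). With 6 arrays many probe sets reach such values: between 46 (*AUR1*) and 108 (*MCM7*) of them had an r above 0.9. None of these 12 genes passed the adjusted p in limma, as 1.18% of all probe sets did. They were picked for values that run like those of genes that did not pass, so this outcome is no further result.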

How the data were processed

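RNA of 3 WT and 3 *ninja-1* root samples was hybridized to Affymetrix ATH1 arrays. The authors normalized the raw data with GCRMA (version not given in the sources used here) and deposited log2 values, which were used without further normalization. GCRMA brings the probe intensities of all arrays to 1 distribution, so a shift shared by most transcripts would not be seen. The deposited values of the probe sets still differed between arrays, with medians from 5.95 to 6.03. Groups were taken from the sample titles. Of 22810 probe sets, 64 controls were left out and 22746 tested with no filter, by limma 3.58.1 in R 4.3.3 (lmFit and eBayes, genotype as the only term, two-sided, Benjamini-Hochberg adjustment). Intervals use the moderated standard error with 4.40 degrees of freedom. The change with an 80% chance of passing comes from the noncentral t distribution. The procedure was tested on simulated data, but the test of the power used other degrees of freedom and another p limit than these arrays. Simulated probe sets near the floor were given the spread of brighter ones. The changes needed were thus not tested at the settings used here. A call needs both an adjusted p below 0.05 and a change of 2-fold or more, the thresholds of the study's methods.

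Gene names come from the platform annotation, updated through RefSeq (TAIR10.1), which give a single gene for 13436 of them. No coordinates are printed, because the values name no build. Genes with several probe sets enter a list by the brightest. The members and the lists were chosen with earlier results of these data known. The text names all 6 members, the 4 genes of each process list with the smallest p, the 2 genes most like each member and any marker, reference or label-check gene. *CYCB1;1* and *PCNA1* would also have been named. Alternatives were 2 other variance models, a filter on low values, 2 normalizations, array weights, a replicate block and leaving out each array in turn. The number of arrays limits the precision.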

Additional observations from a re-analysis of the deposited data

How the results depend on the processing

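Under all 13 alternatives, 0 of the 6 genes passed the adjusted p, 0 were called and 0 of the other list genes tested passed. The filter on low values left out *ACR4* and 7 of the 20 other genes, so that 13 of those were tested under it. The number of the 6 genes with an unadjusted p under 0.05 was 1 (*MCM7*) with the filter on low values, 1 with the replicate block and, with 1 array left out, between 0 and 1, the 1 again being *MCM7*, without WT replicate 1. The log2 change of *AUR1* lay between −0.031 and 0.066 with 1 array left out, below 0 without WT replicate 2 (−0.031), *ninja-1* replicate 1 (−0.012) or *ninja-1* replicate 2 (−0.023). That of *ACR4* lay between −0.11 and 0.047, above 0 only without *ninja-1* replicate 2. The other 4 genes kept their direction under every alternative, with *BBM* between −0.51 and −0.22, *MCM7* between −0.33 and −0.15, *AUR2* between 0.00056 and 0.17 and *JKD* between 0.044 and 0.19. In a replicate block the log2 change of *MCM7* was −0.24 (adjusted p = 0.386 from limma). The labels number the replicates but describe no pairing, and the deviations of same-numbered arrays correlated with r of 0.10, 0.05 and 0.16. With that block 0 of all probe sets passed, against 268 without it. The number over all probe sets was 1000 with the filter on low values, 813 after median centring, 141 without moderation and between 66 and 215 with 1 array left out, so the change a gene needed to pass moved with it: it was at most 2.08-fold for all 6 genes after median centring up to 6.02-fold (*BBM*) without moderation and, with 1 array left out, up to 28.7-fold for *BBM* and 2.90-fold for *AUR1*. Values under 4 lie near the background, which limits *ACR4*.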
